A study of Homo sapiens with 12 samples.

Results

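The genes described here take glucose into the cell and break it down: the glucose transporter gene SLC2A1 and the enzyme genes HK1, HK2, GPI, PFKL, PFKM, PFKP, ALDOA, PKM and LDHA. They were listed by symbol, and all 10 were matched to 1 Ensembl identifier each, of 57773 genes counted in each library. The cells were T47D, an estrogen receptor-positive breast cancer line, in which a hairpin that silences PSMD2 could be switched on; PSMD2 belongs to the 19S cap that feeds substrates into the proteasome. There were 4 groups of 3 libraries. Lo19S cells with bortezomib had received 0.2 µg/ml doxycycline for 3 days and none for the next 24 h, followed by the proteasome inhibitor bortezomib at 20 nM for 16 h. Control cells with bortezomib carried the same hairpin uninduced and received the same drug treatment. Lo19S cells with DMSO and control cells with DMSO received only the solvent in that last step. Doxycycline was given to Lo19S cells alone, so effects of doxycycline and of PSMD2 loss cannot be told apart. Whether replicates were grown separately is not stated in the labels, and p-values here reflect a spread between libraries that may be technical.

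Glycolysis converts glucose to pyruvate in the cytosol and yields ATP and NADH. Transport across the membrane comes first, hexokinases then trap glucose as glucose 6-phosphate, and phosphofructokinase makes the committed step to fructose 1,6-bisphosphate. Several steps are served by isoenzymes that separate genes encode and that differ in affinity and regulation. Tumour cells commonly take up much glucose and reduce pyruvate to lactate.

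Library totals ran between 7376597 and 15003480 counts, and 14714 genes passed the filter on low counts, all 10 members among them. PSMD2 was lower in Lo19S cells, with 541, 546 and 540 CPM (counts relative to library size, adjusted by the trimmed mean of M-values, TMM) against 1509, 1510 and 1528 in control cells under bortezomib, and 183, 189 and 184 against 408, 392 and 417 CPM under DMSO. Replicate 3 of control cells with DMSO stood apart from its fellows: chi-square values comparing its counts with theirs, divided by the degrees of freedom, were 3.98 and 4.36, against 1.16 to 2.01 between other replicates of a group. All 8 luminal epithelial markers were present in every group, with summed levels of 2845 to 2991 CPM in Lo19S cells and 2879 to 2965 CPM in control cells under bortezomib, and 5494 to 5570 CPM in Lo19S cells and 6278 to 6379 CPM in control cells under DMSO. Single markers moved apart from these sums. Their log2 fold changes with bortezomib ran from -3.03 to 0.82 in Lo19S cells and from -4.445 to 0.96 in control cells. Under bortezomib, those of Lo19S over control cells ran from -0.33 to 1.20. Leukocyte markers summed to at most 2.33 CPM, with CD3E at 0 counts in every group, and the 3 endothelial markers found to at most 0.372 CPM. The 4 fibroblast markers summed to 40.2 to 43.0 and 61.8 to 67.9 CPM in Lo19S and control cells under bortezomib, and to 28.6 to 29.2 and 24.6 to 30.1 CPM under DMSO, with COL1A2, PDGFRA or both at 0 counts in each group. The part of these differences in the results was not tested.

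Sequences before the start of 3 members are shown because their RNA moved most, in opposite directions, or because it fell while that of its isoenzyme gene rose: HK2 rose most with bortezomib, LDHA fell most, and PFKL fell while PFKP rose. They were read 5′ to 3′ on the gene's own strand from RefSeq promoters on GRCh38.p14, in which all 10 members were found with 29 start sites. Shown are the stretches of the 250 bases before a start that lie outside the exons of GENCODE release 29. Capitals mark ACGTG or GCGTG on either strand, the core letters of hypoxia response elements, which include the E-box CACGTG that MYC and MLXIPL are known to bind.
HK2 chr2:74834920-74835169 plus strand: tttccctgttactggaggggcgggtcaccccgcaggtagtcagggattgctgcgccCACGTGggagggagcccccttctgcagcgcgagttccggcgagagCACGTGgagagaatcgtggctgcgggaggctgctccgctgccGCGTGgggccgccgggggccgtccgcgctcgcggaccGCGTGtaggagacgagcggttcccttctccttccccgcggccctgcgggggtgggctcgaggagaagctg
LDHA chr11:18394313-18394387 plus strand: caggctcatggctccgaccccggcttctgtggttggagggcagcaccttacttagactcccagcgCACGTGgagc
LDHA chr11:18396101-18396265 plus strand: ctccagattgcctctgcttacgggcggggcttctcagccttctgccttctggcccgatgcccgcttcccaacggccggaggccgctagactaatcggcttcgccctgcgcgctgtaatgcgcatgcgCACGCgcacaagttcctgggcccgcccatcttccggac
PFKL chr21:44299803-44300050 plus strand: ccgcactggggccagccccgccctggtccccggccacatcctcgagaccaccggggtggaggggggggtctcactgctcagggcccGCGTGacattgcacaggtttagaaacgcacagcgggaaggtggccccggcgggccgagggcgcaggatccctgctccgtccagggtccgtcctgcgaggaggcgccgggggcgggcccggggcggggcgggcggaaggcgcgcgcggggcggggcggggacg
The HK2 stretch, which ends at a start site, held CACGTG at 2 places and GCGTG at 2 more. The LDHA stretches, which precede different start sites by 175 and 85 bases, held 1 CACGTG and 1 GCGTG, the second read on the other strand as CACGC, and the PFKL stretch held 1 GCGTG. Leaving out exon bases removed further letters. The full 250-base window of the first LDHA start held CACGTG at 2 places, 185 and 87 bases before it, and ACGTG on the other strand at 73 bases. A second HK2 window, which lies wholly in annotated exons, held ACGTG at 2 places and GCGTG at 1. Among the 29 member windows of 250 bases, 13 (44.8%) held ACGTG or GCGTG on either strand, against 43.2% of all 35116 windows of that length. The letters ACGTG alone stood in 18.5%, GCGTG in 32.2% and CACGTG in 6.34% of all windows. The windows of SLC2A1 and PKM held none of them. Such letters were thus found both before a gene that rose and before genes that fell, and they are a description of sequence, not of binding.

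The question of the first comparisons was what bortezomib does to these genes in each state. With bortezomib SLC2A1, HK2 and PFKP were higher and HK1, PFKL, PKM and LDHA lower, in Lo19S and in control cells, so genes of the hexokinase and phosphofructokinase steps went both ways; scaling by library totals left these directions as they were, though PFKP was then not called in control cells. In Lo19S cells 5 members rose, 4 fell and PFKM did not pass the test, where 77.5% of all genes tested were called, 37.8% as higher and 39.7% as lower. In control cells 5 rose and 5 fell, where 81.4% of all genes were called, 39.2% as higher and 42.2% as lower. With scaling by library totals in place of TMM, 3 members rose and 7 fell in Lo19S cells, and 3 rose and 6 fell in control cells. The shares of members called were thus near those of all genes, and the members' median log2 fold change was 0.06 in Lo19S cells and 0.04 in control cells, against -0.02 and -0.04 over all genes. Bortezomib and DMSO libraries did not overlap for 8 of the 10 members in Lo19S cells and for all 10 in control cells. The same held for 79.2% and 81.1% of all genes tested, so a lack of overlap is common here. Calls are from the quasi-likelihood test of edgeR at an adjusted p below 0.05, with Benjamini-Hochberg adjustment over all 14714 genes. Bulk RNA does not tell a change in the number of cells that express a gene from a change in RNA per cell.

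**Figure D1:**
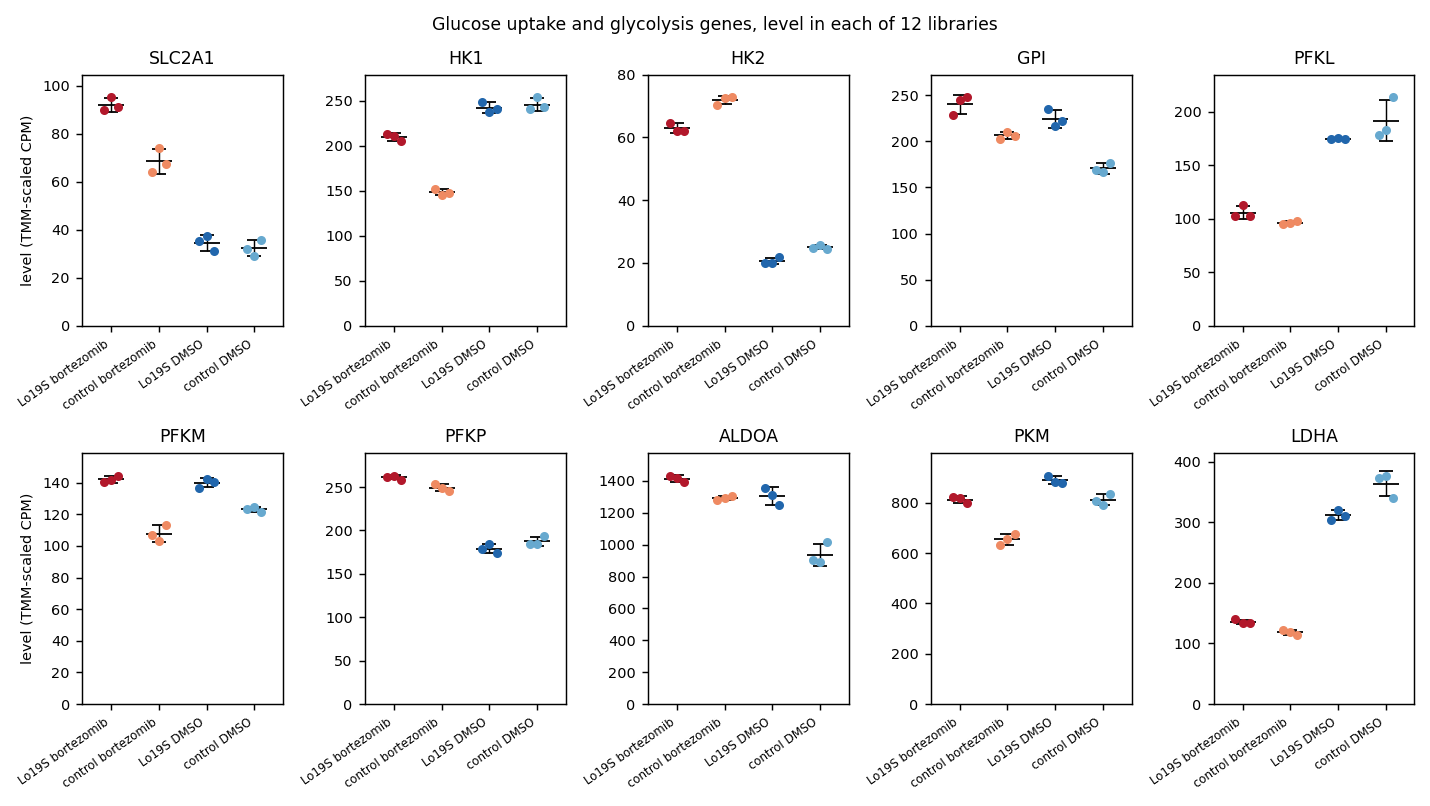
Level of each of the 10 genes in TMM-scaled CPM on a linear axis that begins at 0. Points are libraries, 3 in each of the 4 groups, and bars give the mean and SD. SLC2A1 and HK2 are higher and PFKL and LDHA lower in both bortezomib groups than in both DMSO groups, with no overlap.

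SLC2A1 (ENSG00000117394) encodes GLUT1, the glucose carrier of most proliferating cells. Its level in Lo19S cells was 89.7, 95.1 and 91.0 CPM with bortezomib, against 35.2, 37.2 and 31.0 CPM with DMSO. In control cells it was 64.0, 74.2 and 67.2 CPM with bortezomib, against 32.0, 29.05 and 35.8 CPM with DMSO. All 6 bortezomib libraries lay above all 6 DMSO libraries. By edgeR, SLC2A1 rose 2.65-fold in Lo19S cells (log2 fold change 1.41, SE 0.067, adjusted p = 1.11e-23) and 2.12-fold in control cells (1.09, SE 0.071, adjusted p = 9.99e-19). The transporter genes in the list of other glucose transporters mostly went the other way: of 13 listed, 5 were measured, and of these 4 fell and none rose in Lo19S cells. In control cells 4 fell and 1, SLC2A8, rose (4 and none with library totals). Over all genes 39.7% were called lower in Lo19S cells and 42.2% in control cells. SLC2A10, among the 5 measured, had only 12 counts in Lo19S cells and 4 in control cells with bortezomib. SLC2A13, a proton myo-inositol transporter, had log2 fold changes of -1.23 in Lo19S cells and -1.35 in control cells, and SLC2A11 of -0.50 and -1.28.

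Hexokinase is encoded here by HK1 (ENSG00000156515), the widely expressed form, and HK2 (ENSG00000159399), the inducible form typical of muscle, fat and many tumours. HK2 stood in Lo19S cells at 64.8, 62.0 and 62.0 CPM with bortezomib, against 20.1, 20.0 and 21.8 CPM with DMSO. Control cells had 70.5, 72.6 and 72.8 CPM of HK2 with bortezomib, against 24.9, 25.6 and 24.4 CPM with DMSO. The 2 drug conditions were far apart in either state. HK2 rose 3.06-fold in Lo19S cells (log2 1.61, SE 0.068, edgeR adjusted p = 2.17e-26) and 2.88-fold in control cells (log2 1.53, SE 0.064, adjusted p = 1.81e-26).

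HK1 went down where HK2 went up. HK1 measured 213, 211 and 205 CPM in Lo19S cells with bortezomib, against 249, 237 and 241 CPM with DMSO. In control cells HK1 measured 152, 146 and 148 CPM with bortezomib, against 240, 254 and 243 CPM with DMSO. Control cells with bortezomib were the lowest group by a wide margin, and bortezomib and DMSO libraries did not overlap in either state. The log2 fold change of HK1 was -0.21 in Lo19S cells (SE 0.039, edgeR adjusted p = 2.96e-06) and -0.72 in control cells (SE 0.040, adjusted p = 8.9e-22).

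Per length, HK1 remained the larger hexokinase RNA in all 4 groups. In CPM per kb of exon, over the GENCODE basic transcripts, HK2 made up 19.1% ± 0.27 of HK1 plus HK2 in Lo19S cells and 27.6% ± 0.80 in control cells with bortezomib, against 6.27% ± 0.34 in Lo19S cells and 7.41% ± 0.11 in control cells with DMSO (SD, n = 3). The summed level was 55.4 and 43.9 CPM per kb in Lo19S and control cells with bortezomib, and 55.4 and 56.8 CPM per kb with DMSO. The ratio of HK2 to HK1 counts within a library does not depend on scaling between libraries. That ratio was 4.10-fold higher with bortezomib than with DMSO, a mean log2 difference of 2.03 (1.82 in Lo19S cells, 2.25 in control cells). In an exact two-sided permutation test of libraries within each state, p was 0.005, the smallest of its 400 arrangements, and 0.00667 after Benjamini-Hochberg adjustment over 12 ratio tests. HKDC1, a further hexokinase-type gene, was scarce: it had 51 counts in Lo19S cells with bortezomib against 1 with DMSO, a ratio of 58.8 with an exact 95% counting interval of 10.1 to 2368. In control cells HKDC1 had 119 counts with bortezomib against 5 with DMSO. Its mean level with bortezomib was 1.90 CPM in Lo19S cells and 4.66 CPM in control cells. ADPGK, an ADP-dependent glucokinase, had log2 fold changes of 1.31 in Lo19S cells and 1.64 in control cells (edgeR adjusted p = 8.66e-27 and 2.52e-31).

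GPI (ENSG00000105220) encodes the isomerase that makes fructose 6-phosphate. It measured 229, 245 and 248 CPM in Lo19S cells with bortezomib, against 235, 216 and 222 CPM with DMSO, and these ranges overlapped. In control cells it measured 203, 210 and 206 CPM with bortezomib, against 168, 166 and 177 CPM with DMSO, with no overlap. The log2 fold change of GPI was 0.10 in Lo19S cells (SE 0.040, edgeR adjusted p = 0.0216) and 0.28 in control cells (SE 0.042, adjusted p = 7.85e-08), and scaling by library totals turned both to -0.19 and -0.11. The call in Lo19S cells was also lost without replicate 2 or 3 of Lo19S cells with DMSO, at 0.08 and 0.09, or replicate 3 of Lo19S cells with bortezomib, at 0.08, where adjusted p was 0.138, 0.0611 and 0.127. Library totals lower the median of all genes by 0.29 in Lo19S and 0.38 in control cells in this comparison, so small changes are read relative to that shift. With library totals 3731 genes were called higher and 7918 lower in Lo19S cells, against 5561 and 5847 with TMM, and 3717 higher and 8452 lower in control cells, against 5761 and 6215 with TMM.

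Phosphofructokinase subunits come from PFKL (ENSG00000141959, liver type), PFKM (ENSG00000152556, muscle type) and PFKP (ENSG00000067057, platelet type), which assemble into tetramers. PFKL stood at 102, 113 and 102 CPM in Lo19S cells with bortezomib, against 175, 176 and 175 CPM with DMSO. In control cells PFKL stood at 95.4, 95.8 and 98.3 CPM with bortezomib, against 178, 183 and 213 CPM with DMSO, where 213 belongs to the replicate that stood apart. Bortezomib libraries were the lower ones throughout. PFKL had log2 fold changes of -0.73 in Lo19S cells (SE 0.052, edgeR adjusted p = 1.27e-16) and -0.99 in control cells (SE 0.052, adjusted p = 5.77e-21), and the value in control cells was -0.90 without that replicate.

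PFKP moved up. PFKP had 262, 263 and 258 CPM in Lo19S cells with bortezomib, against 179, 184 and 174 CPM with DMSO. Its control-cell levels were 253, 249 and 245 CPM with bortezomib, against 184, 184 and 193 CPM with DMSO. No library of one drug condition reached the range of the other. The log2 fold change of PFKP was 0.54 in Lo19S cells (SE 0.038, edgeR adjusted p = 1.12e-17) and 0.41 in control cells (SE 0.038, adjusted p = 1.03e-13), and with library totals 0.25 and 0.03, of which the value in control cells was not called (adjusted p = 0.437).

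PFKM levels in Lo19S cells were 140, 142 and 144 CPM with bortezomib, against 137, 143 and 141 CPM with DMSO, and overlapped. In control cells they were 107, 103 and 113 CPM with bortezomib, against 123, 125 and 122 CPM with DMSO, and did not overlap. PFKM had a log2 fold change of 0.02 in Lo19S cells (SE 0.043, edgeR adjusted p = 0.634), which was -0.27 and called with library totals, and of -0.19 in control cells (SE 0.046, adjusted p = 0.000186). In the reference annotation, PFKM shares 628 exon bases (8.58%) with SENP1 on the opposite strand. Reads of these genes cannot be told apart there, as the sources used here do not give the strand setting of the counting.

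**Figure D2:**
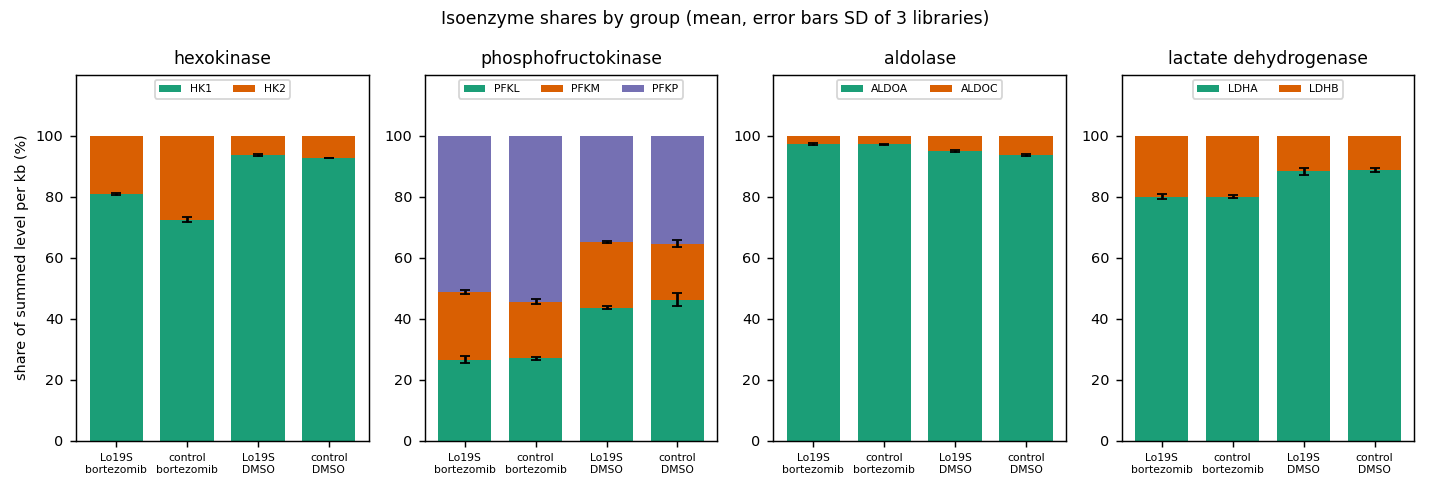
Share of each isoenzyme gene in the summed CPM per kb of its enzyme, in percent on a linear axis, for the 4 groups (mean of 3 libraries, error bars SD, drawn at the top of each segment but the last). HK2 and PFKP take larger shares and PFKL a smaller share in both bortezomib groups than in both DMSO groups.

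The PFK isoenzymes thus exchanged share, with PFKP gaining and PFKL losing under bortezomib. Per kb of basic exon, PFKP held 51.3% ± 0.67 in Lo19S cells and 54.5% ± 1.0 in control cells with bortezomib, against 34.9% ± 0.56 and 35.4% ± 0.91 with DMSO (SD, n = 3). PFKL held 26.6% ± 1.0 in Lo19S cells and 26.9% ± 0.38 in control cells with bortezomib, against 43.6% ± 0.44 and 46.2% ± 2.1 with DMSO. PFKL was the most abundant of the 3 under DMSO and PFKP under bortezomib, but this order depends on the length used. With the exons of all transcripts, which lengthen PFKL most, PFKP held 63.3% and 66.9% with bortezomib and already 48.9% and 50.3% with DMSO in Lo19S and control cells. The summed level was 135 and 121 CPM per kb of basic exon in Lo19S and control cells with bortezomib, and 136 and 140 with DMSO. The count ratio of PFKP to PFKL was 2.52-fold higher with bortezomib (mean log2 difference 1.34), that of PFKM to PFKL higher by 0.77 and that of PFKP to PFKM higher by 0.57 on the log2 scale. Each had an exact permutation p of 0.005 and an adjusted p of 0.00667, and the groups did not overlap in either state.

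Aldolase cleaves fructose 1,6-bisphosphate into triose phosphates, and ALDOA (ENSG00000149925) encodes its main form outside liver and brain. ALDOA was the member with the highest level per kb in all 4 groups. Its levels in Lo19S cells were 1433, 1419 and 1392 CPM with bortezomib, against 1356, 1310 and 1248 CPM with DMSO. Control cells held 1283, 1291 and 1307 CPM with bortezomib, against 902, 892 and 1015 CPM with DMSO. The control DMSO libraries were the low group, and no library of the other groups reached down to their range. ALDOA had a log2 fold change of 0.12 in Lo19S cells (SE 0.036, edgeR adjusted p = 0.00404), which was -0.17 with library totals and not called without replicate 3 of Lo19S cells with DMSO (0.09, adjusted p = 0.0525). In control cells it rose by 0.47 (SE 0.037, adjusted p = 2.82e-15), or 0.09 with library totals. In the reference annotation 42.3% of the exon bases of ALDOA also belong to AC093512.2 on the same strand. That annotation is of another genome build than the counting, and AC093512.2 was not among the genes with counts here. The overlap thus gives no measure of uncertainty in the counts of ALDOA, and its effect was not tested. ALDOC, the brain-type aldolase, was a minor form at 2.81% of aldolase level per kb in Lo19S and in control cells with bortezomib, against 5.04% and 6.37% with DMSO. The ratio of ALDOC to ALDOA was lower by 1.06 on the log2 scale with bortezomib (difference -1.06, exact permutation p = 0.005, adjusted p = 0.00667).

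PKM (ENSG00000067225) encodes the muscle-type pyruvate kinases, whose splice forms M1 and M2 a gene count does not separate. PKM measured 824, 817 and 797 CPM in Lo19S cells with bortezomib, against 908, 884 and 880 CPM with DMSO. In control cells PKM measured 634, 655 and 677 CPM with bortezomib, against 808, 792 and 836 CPM with DMSO. Bortezomib libraries were lower in both states without overlap. The log2 fold change was -0.13 in Lo19S cells (SE 0.033, edgeR adjusted p = 0.000308) and -0.31 in control cells (SE 0.033, adjusted p = 7.62e-12).

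LDHA (ENSG00000134333) encodes the lactate dehydrogenase subunit that favours lactate formation, and it fell most of the 10. Lo19S cells had 140, 134 and 134 CPM of LDHA with bortezomib, against 304, 321 and 311 CPM with DMSO. Control cells had 122, 120 and 114 CPM with bortezomib, against 374, 377 and 340 CPM with DMSO. Every bortezomib library was below every DMSO library by more than the spread within any group. LDHA was 2.30-fold lower in Lo19S cells (log2 fold change -1.20, SE 0.042, edgeR adjusted p = 1.87e-29) and 3.07-fold lower in control cells (-1.62, SE 0.043, adjusted p = 8.06e-35). Reads of LDHA may be split with its processed pseudogenes, of which 6 had symbols in the files. Their summed counts were 6.08% and 6.12% of those of LDHA in Lo19S and control cells with bortezomib, and 5.43% and 5.59% with DMSO. The same share was at most 1.31% for HK2, 0.33% for PKM and 0.13% for ALDOA in any group.

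LDHB, the other common lactate dehydrogenase gene, was also lower with bortezomib, by less than LDHA. Its log2 fold change was -0.29 in Lo19S cells and -0.66 in control cells (edgeR adjusted p = 0.00373 and 1.29e-08). LDHB made up 20.1% ± 0.79 of lactate dehydrogenase level per kb in Lo19S cells and 20.1% ± 0.45 in control cells with bortezomib, against 11.8% ± 1.0 and 11.4% ± 0.65 with DMSO (SD, n = 3). The LDHB to LDHA ratio was 1.92-fold higher with bortezomib (log2 difference 0.94, exact permutation p = 0.005, adjusted p = 0.00667), while the summed level per kb was 57.3 and 49.9 CPM with bortezomib against 119 and 138 CPM with DMSO in Lo19S and control cells.

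**Figure D3:**
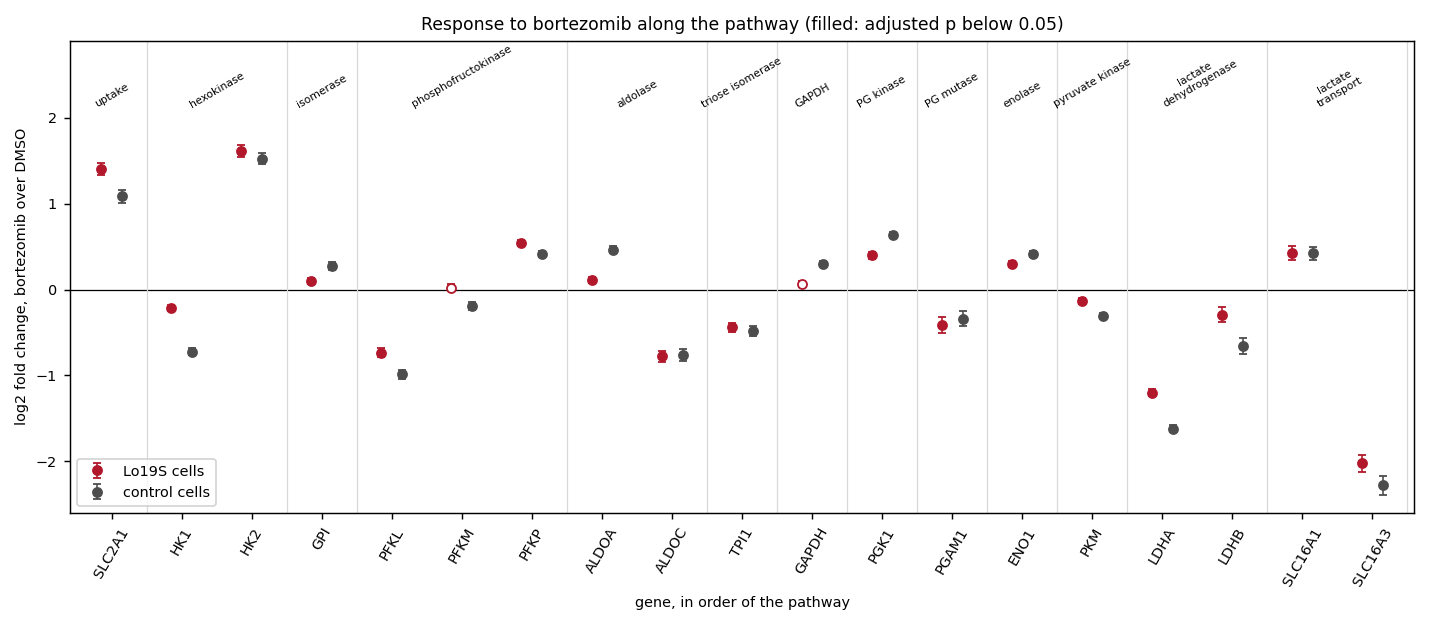
Log2 fold change of bortezomib over DMSO (y axis, error bars SE) for genes in pathway order (x axis), in Lo19S cells (red) and control cells (grey). Filled points passed the test. SLC2A1 and HK2 lie above 1, and LDHA and SLC16A3 below -1, in both states.

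The steps that the 10 genes do not cover were read from a list of 20 other glycolysis enzymes, of which 13 were measured. In Lo19S cells 5 rose and 5 fell with bortezomib, with a median log2 fold change of -0.002, and in control cells 6 rose and 5 fell, with a median of -0.06. With library totals these counts were 3 and 7 in Lo19S cells and 4 and 8 in control cells. Over all genes 77.5% were called in Lo19S cells and 81.4% in control cells with TMM. PGK1, which makes the first ATP of the payoff phase, rose by 0.40 in Lo19S cells and 0.64 in control cells (edgeR adjusted p = 4.94e-14 and 9.19e-22). ENO1, the main enolase, rose by 0.30 and 0.41 (adjusted p = 4.3e-12 and 6.76e-17), or by 0.01 and 0.03, neither called, with library totals. TPI1, triosephosphate isomerase, had log2 fold changes of -0.44 and -0.48, and PGAM1, phosphoglycerate mutase, of -0.41 and -0.34. GAPDH had 0.06 in Lo19S cells (adjusted p = 0.076) and 0.30 in control cells (adjusted p = 2.35e-11), both of which turned below 0, to -0.22 and -0.08, with library totals. PGAM2, the muscle form, had 0 counts in control cells with bortezomib against 23 with DMSO, at least 5.64-fold lower when 3 counts over the group are allowed. The list's median in control cells was the same with PGAM2 at that bound.

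Export of lactate and control of the pathway were read in the same way. SLC16A3, the lactate exporter MCT4, stood at 9.72 CPM in Lo19S cells and 7.62 CPM in control cells with bortezomib, against 40.1 and 37.3 CPM with DMSO (log2 fold change -2.03 and -2.28, edgeR adjusted p = 2.61e-23 and 6.35e-24). SLC16A1, which encodes MCT1, had 0.43 and 0.42, or 0.14 and 0.04, neither called, with library totals. Of 4 measured genes for enzymes that set fructose 2,6-bisphosphate, the activator of phosphofructokinase, 2 rose and 1 fell in Lo19S cells and 3 rose and 1 fell in control cells, against 1 and 2 in Lo19S cells and 2 and 1 in control cells with library totals. The one that fell in both states with TMM, PFKFB3, a kinase that makes this activator, had -1.47 and -1.42. FBP1, the phosphatase that runs the phosphofructokinase step backwards in gluconeogenesis, had -2.72 in Lo19S cells and -3.04 in control cells (adjusted p = 1.11e-26 and 2.19e-25).

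Side routes gave mixed counts, to be read beside the 77.5% of all genes called in Lo19S cells and 81.4% in control cells. Of 8 measured genes of the pentose phosphate pathway, 4 rose and 3 fell in Lo19S cells and 5 rose and 3 fell in control cells, but with library totals 2 rose and 5 fell in Lo19S cells and 2 rose and 4 fell in control cells. TALDO1, transaldolase, had 0.62 in Lo19S cells and 1.22 in control cells, and H6PD, the endoplasmic reticulum glucose 6-phosphate dehydrogenase, had -1.17 and -1.73. Among 11 genes of glycogen and other branch points, 5 rose and 4 fell in either state, with GFPT1, the entry enzyme of the hexosamine pathway, at 1.39 in Lo19S cells and 1.29 in control cells and GPD1L at -1.16 and -1.98. With library totals 5 of these 11 rose and 6 fell in Lo19S cells, and 3 rose and 8 fell in control cells. Of 8 measured regulators of glycolysis genes, 4 rose and 2 fell in Lo19S cells and 5 rose and 2 fell in control cells, and with library totals 3 rose and 4 fell in Lo19S cells and 4 rose and 3 fell in control cells. HIF1A, whose product drives hypoxic induction of many glycolysis genes, had 0.61 and 0.63, MYC had 1.32 and 1.29, and ARRDC4, an arrestin that is induced by glucose through MLX factors and lowers glucose uptake, had 3.20 and 4.29. Each of these named regulators passed the test in both states. All of them rose, while the lowest log2 fold change among the 8 regulators was -2.15 in Lo19S cells and -1.41 in control cells.

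The next comparisons asked how the Lo19S state itself differed from control cells, first without drug. Under DMSO, ALDOA and GPI were the members that differed most, both higher in Lo19S cells. Of the 10, 4 rose (GPI, PFKM, ALDOA, PKM), 3 fell (HK2, PFKL, LDHA) and 3 did not pass the test, where 24.7% of all genes were called, 11.7% as higher and 13.0% as lower. The members' median log2 fold change was 0.04, against -0.004 over all genes. ALDOA was 1.40-fold higher (0.48, SE 0.037, edgeR adjusted p = 3.3e-14) and GPI 1.32-fold higher (0.40, SE 0.041, adjusted p = 6.37e-11), with every Lo19S library above every control library. Lo19S and control libraries did not overlap for 8 of the 10 members, against 34.4% of all genes. PFKM was higher by 0.19 (adjusted p = 0.000878) and PKM by 0.13 (adjusted p = 0.0015). HK2 had -0.28 (adjusted p = 0.00419) and LDHA -0.22 (adjusted p = 1.07e-05). PFKL had -0.13 (adjusted p = 0.0424), a call that most alternatives ended: without the control library that stood apart the value was -0.05 (adjusted p = 0.367). With the value between -0.13 and -0.11, it was also lost with DESeq2 (adjusted p = 0.108), library totals (0.0907), a replicate block (0.0532) and a fit on the groups compared (0.147). Leaving out any one of the Lo19S DMSO libraries (adjusted p = 0.108, 0.0935 and 0.0987 for replicates 1, 2 and 3), or control bortezomib replicate 1 or 2 (0.0506 and 0.052), also ended it. SLC2A1 had 0.10 (adjusted p = 0.364; 0.18, adjusted p = 0.0548, without the library that stood apart), HK1 -0.02 (adjusted p = 0.775) and PFKP -0.06 (adjusted p = 0.246). Without the library that stood apart, ALDOA had 0.54, GPI 0.42, HK2 -0.30 and LDHA -0.27. Of the 13 other glycolysis enzymes measured, 2 rose (GAPDH by 0.24 and ENO1 by 0.11) and none fell. The call of ENO1 was lost without replicate 1 of Lo19S cells with DMSO (0.09, adjusted p = 0.0684) and with no filter on low counts (0.08, adjusted p = 0.139). PGK1 was called lower without the library that stood apart (-0.09, adjusted p = 0.0195). PGAM1 was called lower without replicate 1 of Lo19S cells with DMSO (-0.26, adjusted p = 0.0489).

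Under bortezomib HK1, SLC2A1 and PFKM were the members that differed most between the states, all higher in Lo19S cells. In Lo19S cells 7 members were higher than in control cells (SLC2A1, HK1, GPI, PFKM, ALDOA, PKM, LDHA), HK2 was lower and PFKL and PFKP did not pass the test, where 43.1% of all genes were called, 22.0% as higher and 21.2% as lower. With library totals 9 members were higher and none lower. The members' median log2 fold change was 0.21, against 0.004 over all genes, and library totals raise the median of all genes by 0.11 in this comparison, with 4920 genes called higher and 1883 lower, against 3230 and 3119 with TMM. HK1 was 1.41-fold higher (0.49, SE 0.041, edgeR adjusted p = 4.92e-14), SLC2A1 1.34-fold (0.42, SE 0.063, adjusted p = 3.2e-07) and PFKM 1.32-fold (0.40, SE 0.046, adjusted p = 5.66e-10). PKM was higher by 0.31 (adjusted p = 8.61e-11), GPI by 0.22 (adjusted p = 1.9e-05), LDHA by 0.20 (adjusted p = 0.000472) and ALDOA by 0.13 (adjusted p = 0.00373). HK2 had -0.19 (adjusted p = 0.00515), which was -0.08 and not called with library totals (adjusted p = 0.243). PFKL had 0.13 (adjusted p = 0.0712), which was called without the control DMSO library that stood apart (0.12, adjusted p = 0.0129), and PFKP had 0.07 (adjusted p = 0.166). With library totals PFKL (0.24, adjusted p = 0.000793) and PFKP (0.18, adjusted p = 0.000144) were both called higher. Of the 13 other glycolysis enzymes, 1 rose and 4 fell (5 and 3 with library totals), with PGK1 at -0.30 and ADPGK at -0.29 (adjusted p = 9.68e-10 and 1.63e-06). All 4 measured genes of gluconeogenesis rose, FBP1 by 0.76 and PCK2, the mitochondrial enzyme that makes phosphoenolpyruvate, by 1.05.

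**Figure D4:**
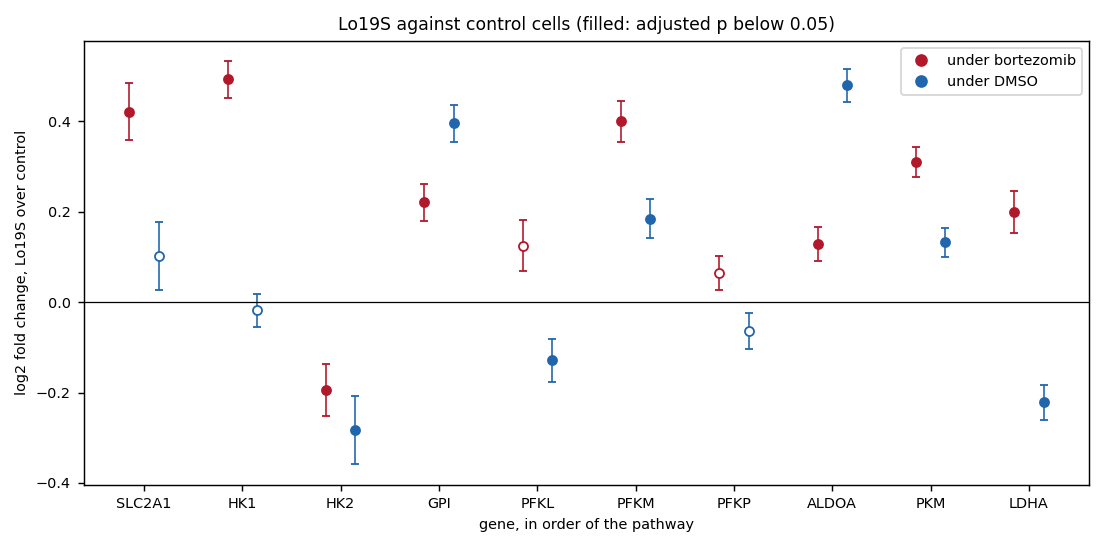
Log2 fold change of Lo19S over control cells (y axis, error bars SE) for the 10 genes in pathway order, under bortezomib (red) and DMSO (blue). Filled points passed the test. Under bortezomib 9 of the 10 genes lie above 0, and under DMSO ALDOA and GPI are the highest.

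Isoenzyme ratios also differed between the states. The HK2 to HK1 ratio was lower in Lo19S than in control cells, by a log2 difference of -0.69 under bortezomib and -0.26 under DMSO, a mean of -0.47. The ratio of PFKM to PFKL was higher in Lo19S cells (0.27 under bortezomib, 0.31 under DMSO, mean 0.29), and that of PFKP to PFKM was lower (-0.33, -0.25, mean -0.29). These 3 had an exact permutation p of 0.005 and an adjusted p of 0.00667, with no overlap of the states under either condition. In control cells with DMSO the log2 ratio of PFKM to PFKL was -0.53, -0.55 and -0.81, the last in the library that stood apart. The mean difference of this ratio between the states ran from 0.24 to 0.31 when libraries were left out in turn. The ratio of PFKP to PFKL had a mean difference of -0.002 (exact permutation p = 0.96, adjusted p = 0.96) and that of LDHB to LDHA of 0.02 (p = 0.72, adjusted p = 0.785). The ALDOC to ALDOA ratio had -0.18 (exact permutation p = 0.055, adjusted p = 0.066), with -0.003 under bortezomib and -0.36 under DMSO. It was called at an adjusted permutation p of 0.048 without replicate 1 of Lo19S cells with bortezomib or without replicate 3 of control cells with bortezomib.

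The last comparison tested whether the bortezomib response itself differed, as the response in Lo19S cells minus that in control cells. It uses the same 4 groups as the comparisons above, so its values are not independent of them. Of the 10 members, 6 had a higher value in Lo19S cells (SLC2A1, HK1, PFKL, PFKM, PKM, LDHA), 2 a lower one (GPI, ALDOA) and 2 did not pass the test (HK2, PFKP), where 27.8% of all genes were called, 14.4% as higher and 13.4% as lower. The members' median difference was 0.20 on the log2 scale, against 0.01 over all genes. With library totals 3331 genes were higher and 1257 lower, against 2126 and 1968 with TMM, and of the members 7 were higher and 1 lower. HK1 fell less in Lo19S cells, with responses of -0.21 and -0.72 in Lo19S and control cells (difference 0.51, SE 0.056, edgeR adjusted p = 3.84e-10). LDHA also fell less, with -1.20 and -1.62 (difference 0.42, SE 0.060, adjusted p = 3.15e-07). ALDOA rose less, with 0.12 and 0.47 (difference -0.35, SE 0.052, adjusted p = 8.81e-07). SLC2A1 rose more, with 1.41 and 1.09 (difference 0.32, SE 0.099, adjusted p = 0.012), a call lost without replicate 3 of Lo19S cells with DMSO (0.26, adjusted p = 0.0564). PFKL differed by 0.25 (adjusted p = 0.00799), or by 0.17 without the control DMSO library that stood apart, PFKM by 0.22 (adjusted p = 0.00775) and PKM by 0.18 (adjusted p = 0.0029). GPI differed by -0.17 (adjusted p = 0.0197), but not past the threshold with library totals (-0.08, adjusted p = 0.311). Its call was also lost without replicate 1 of control or of Lo19S cells with DMSO (adjusted p = 0.0532 and 0.11), replicate 2 of control cells with bortezomib (0.0695) or replicate 1 of Lo19S cells with bortezomib (0.0883). HK2 had 0.09 (adjusted p = 0.542) and PFKP 0.13 (adjusted p = 0.0698), and PFKP was called with library totals (0.22, adjusted p = 0.0012).

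Ordered by level per kb of basic exon, the members kept ALDOA and PKM at the top and HK2 at the bottom in all 4 groups. ALDOA had 588 and 537 CPM per kb in Lo19S and control cells with bortezomib, and 542 and 389 with DMSO. PKM had 245 and 198 CPM per kb with bortezomib, and 269 and 245 with DMSO. The third place was held by PFKP with bortezomib, at 69.1 CPM per kb in Lo19S cells and 66.0 in control cells, and by LDHA with DMSO, at 105 and 123. Below them, in Lo19S cells with bortezomib, came GPI (53.7), LDHA (45.8), HK1 (44.8), PFKL (35.8), PFKM (29.7), SLC2A1 (23.1) and HK2 (10.6 CPM per kb), where the ranges of LDHA and HK1 overlapped. Control cells with bortezomib had GPI (46.1), LDHA (39.8), PFKL (32.6), HK1 (31.8), PFKM (22.6), SLC2A1 (17.2) and HK2 (12.1 CPM per kb), where those of PFKL and HK1 overlapped. In Lo19S cells with DMSO the order was PFKL (59.2), HK1 (51.9), GPI (50.1), PFKP (47.4), PFKM (29.3), SLC2A1 (8.65) and HK2 (3.47 CPM per kb), where HK1 overlapped with GPI and GPI with PFKP. Control cells with DMSO had PFKL (64.8), HK1 (52.6), PFKP (49.6), GPI (38.1), PFKM (25.8), SLC2A1 (8.10) and HK2 (4.21 CPM per kb), with no overlap between neighbours. The middle of the order shifts with the exons of all transcripts, where PFKL stood sixth in control cells with DMSO at 21.5 CPM per kb and last in control cells with bortezomib at 10.8.

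For each member, the gene whose log2 CPM followed it most closely over the 12 libraries was named by Pearson's r, as a description of libraries that share 4 groups and their scaling. HK2 was nearest to ODC1, ornithine decarboxylase (r = 0.999), LDHA to TOP2A, a topoisomerase of dividing cells (r = 0.998), PFKL to PRRC2A (r = 0.997), SLC2A1 to FILIP1L (r = 0.995), PFKP to NTN4 (r = 0.993) and HK1 to ARHGAP35 (r = 0.993). PKM was nearest to TMEM63A (r = 0.987), ALDOA to JAKMIP3 (r = 0.983), PFKM to NEBL (r = 0.973) and GPI, the least closely followed, to CTSD (r = 0.969). None of these nearest genes was itself one of the 10. Among the members, GPI and ALDOA, which serve neighbouring parts of the pathway, had r = 0.944, LDHA and PFKL r = 0.979, and HK2 and LDHA r = -0.969.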

How the data were processed

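RNA of 12 T47D libraries, prepared from polyadenylated RNA with a stranded kit per the labels' protocols, was measured as reads per gene. The deposited files hold raw counts per Ensembl gene, made by the authors with STAR 2.5.4b and featureCounts 1.6.1 on GRCh37 per the submitters' processing notes. The sources used here do not give the strand setting or the treatment of multiply mapping reads. No row named anything but a gene. Groups were taken from the labels. The counts were tested with edgeR 4.0.16 (R 4.3.3, limma 3.58.1) by the robust quasi-likelihood test over all 12 libraries with 1 coefficient per group, after TMM scaling and filterByExpr, in 5 comparisons that share groups. A gene was called at a Benjamini-Hochberg adjusted p below 0.05 over 14714 genes. SE is the log2 fold change divided by the square root of F. Levels are TMM-scaled CPM, and per kb over merged exons of GENCODE release 29 basic transcripts, with the exons of all transcripts as an alternative chosen after seeing the data. These exon lengths come from a GRCh38 annotation while reads were counted on GRCh37, so levels per kb are approximate. Isoenzyme ratios of counts (prior count 0.5) were tested by exact two-sided permutation within strata, 12 tests in all, since 3 libraries against 3 alone cannot go below p = 0.1. Scripts ran in Python 3.11.15 with scipy 1.17.1, and the fits were tested on simulated data. In the simulated counts few genes changed, as many up as down, so the scaling under bortezomib was not tested there. Alternatives were DESeq2 1.42.0, other size factors, library totals, no filter, a replicate block, fits on the groups compared, a prior count of 5 and leaving out each library. All 10 members were named, and of the other lists any measured gene was eligible. The members and lists were chosen with earlier results of these data known. Counting intervals and bounds cover counting error only. TXNIP and PECAM1 were not analysed here.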

Additional observations from a re-analysis of the deposited data

Results flagged for a closer look

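The bortezomib response differed between Lo19S and control cells for 20 of the named genes, by the edgeR test of the difference of responses (Lo19S minus control, log2 scale), with adjusted p between 1.17e-13 and 0.04. In this comparison 27.8% of all genes tested were called. Genes of the lists that are not named here were left out of the 20. For example, 5 of 11 genes of glycogen and branch points were called, and only GPD1L of them is among the 20. Of the 20 genes, 8 are members. HK1 (0.511) and LDHA (0.421) fell less in Lo19S cells, as did PFKL (0.254) and PKM (0.177), SLC2A1 (0.318) rose more, PFKM differed by 0.215, and ALDOA (-0.351) and GPI (-0.175) had the lower response in Lo19S cells. Among other enzymes of glycolysis, LDHB differed by 0.372, and ADPGK (-0.331), PGK1 (-0.241), GAPDH (-0.237) and ENO1 (-0.117) rose less in Lo19S cells or, for GAPDH, were not called there. Among these 20 genes, PCK2 had the widest difference of the enzyme genes, at 1.17: it was higher with bortezomib in Lo19S cells and lower with bortezomib in control cells. Genes outside these 20 had differences of up to 1.365 in the list of glycogen and branch points. The highest value among other glycolysis enzymes, 1.825, was that of PGAM2 and was not called. PGAM2 had 1 count in Lo19S cells and 0 in control cells with bortezomib, too few to give a difference. GPD1L differed by 0.818, SLC2A11 by 0.78 and H6PD by 0.561, each falling less in Lo19S cells. ARRDC4 differed by -1.089 and TALDO1 by -0.606, both rising less in Lo19S cells. PSMD2, the target of the hairpin, differed by -0.353. The call of ENO1 was lost with library totals (-0.02, adjusted p = 0.734), with no filter on low counts, with the replicate block (-0.12, adjusted p = 0.0573) and without any 1 library other than replicate 3 of control cells with DMSO or replicate 1 of Lo19S cells with bortezomib. That of LDHB was lost with DESeq2 (0.36, adjusted p = 0.0909), without replicate 1 of control cells with DMSO, replicate 2 or 3 of Lo19S cells with DMSO, replicate 2 or 3 of control cells with bortezomib or replicate 1 of Lo19S cells with bortezomib (0.32 to 0.36, adjusted p = 0.0566 to 0.0825).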

How the results depend on the processing

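Scaling by library totals moved the most values, since it lowers the log2 fold changes of bortezomib over DMSO. It turned the sign of GPI in Lo19S cells (-0.19) and control cells (-0.11), of PFKM (-0.27) and ALDOA (-0.17) in Lo19S cells and of GAPDH in both states (-0.225 in Lo19S and -0.0808 in control cells), and, in Lo19S against control cells under bortezomib, of GAPDH (0.11) and ENO1 (0.10). Of 890 alternative values for the members' log2 fold changes, 856 kept the call or its absence, 25 lost the call and 5 gained one. The other 4 turned sign with a call before or after. Turns of sign among values not called were not counted. HK1 in Lo19S against control cells under DMSO, for example, ran from -0.04 to 0.002 when libraries were left out in turn. Without a filter on low counts, the bortezomib calls of GPI (0.05, adjusted p = 0.472) and ALDOA (0.06, adjusted p = 0.163) in Lo19S cells were lost. The cause was not tested. The counts of genes and members called stayed within 1.5 times in all alternatives run. The ALDOC to ALDOA ratio of Lo19S against control cells ranged between -0.20 and -0.15 when libraries were left out in turn, with adjusted permutation p between 0.048 and 0.126. The labels state no pairing of the replicate numbers. Deviations from the group means had same-number correlations of -0.072 to 0.026, which cannot show whether libraries were handled in pairs. With a replicate block 3445 genes were called for Lo19S against control cells under DMSO and 6196 under bortezomib, 11349 and 11922 for bortezomib in Lo19S and control cells, and 3889 for the difference of responses, PFKL under DMSO lost its call (-0.13, adjusted p = 0.0532), and 9 of 12 ratio tests had an adjusted p of 0.0417. Depth limits HKDC1 and PGAM2, which had few counts.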
